A study of Mus musculus with 12 samples.

Results

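Satb1, Lef1, Tcf7, Bach2, Ets1 and Myb encode transcription factors known for their work in developing and naive T cells. They were taken by gene symbol as a fixed list of 6 among the 55450 gene rows of the count table. All 6 passed the filter on low counts, as did 15361 genes in all, and each was detected in every library.

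Transcripts were sequenced in 12 libraries from mouse thymus, 4 for each of 3 sorted CD4+ populations. All cells came from mice carrying CD4-Cre and Foxp3-GFP, a reporter that marks cells expressing the regulatory T cell (Treg) factor Foxp3, and the labels give no other allele and no age. Eos+ Tregs were Foxp3+ cells with Ccr6 and Cxcr4 on their surface, Eos- Tregs were Foxp3+ cells lacking both, and conventional T cells (Tconv) were Foxp3- cells. Eos, the Ikaros family protein encoded by Ikzf4, was not part of the sort, so the group names stand for the surface gate. Whether the replicates are separate animals is not stated, so each p-value reflects only how far these libraries spread, and part of that spread may be technical.

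As background, Satb1 folds chromatin into loops and sets the gene programs of thymocytes, and Foxp3 is known to repress it in Tregs. Lef1 and Tcf7 (TCF-1) are HMG-box partners of beta-catenin in Wnt signalling and recruit Groucho corepressors in its absence. Bach2 is a repressor of the BACH/CNC family that holds back effector genes, Ets1 is the founding member of the ETS family, and Myb is a proto-oncogene needed at several steps of thymocyte development. Naive T cells carry most of these factors, not including Myb, at higher levels than effector T cells do. Activated Tregs are known to lose several of them.

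Libraries held 23.9 to 37.9 M expected counts, and levels are given in CPM, counts per M of a library total scaled by TMM. Ikzf4 averaged 314 CPM for Eos+ Tregs and 171 CPM for Eos- Tregs against 25.3 CPM for Tconv, so Eos- Tregs were not free of its transcript. Foxp3 was 53.3 to 862 CPM in the Treg libraries and at most 3.42 CPM in Tconv, and the Treg libraries numbered 1 were the low ones, at 55.0 and 53.3 CPM. The summed level of 8 CD4 T cell markers was 4427 to 4730 CPM in Eos+ Tregs, 5226 to 5583 in Eos- Tregs and 6269 to 6931 in Tconv. The summed level of 11 markers of double-positive thymocytes, the immature CD4+CD8+ stage, was 200 to 532, 172 to 551 and 215 to 465 CPM in the same order, and in each group it was higher in the libraries numbered 1 and 2 than in those numbered 3 and 4.

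Eos+ Tregs held less transcript of 5 of the 6 factors than Eos- Tregs did, by 1.35-fold for Ets1 to 3.54-fold for Satb1, and Tcf7 was the member that did not pass the test. In this comparison edgeR called 16.3% of all 15361 tested genes, 6.45% lower and 9.82% higher. Against Tconv, Satb1, Lef1, Tcf7, Bach2 and Ets1 were lower in Eos+ Tregs and Myb was higher, where 13.0% of all genes were called lower and 17.3% higher. In Eos- Tregs against Tconv, Satb1, Lef1 and Tcf7 were lower and Myb was higher, where 14.6% of all genes were called, 5.89% lower and 8.76% higher. Counted by library values alone, the Treg groups did not overlap for 5 factors, all lower in Eos+ Tregs, where 20.0% of all genes did not overlap and 7.86% were lower without overlap. All 6 factors did not overlap between Eos+ Tregs and Tconv, 5 lower and 1 higher, where 30.3% of all genes were called in either direction and 33.1% did not overlap (14.6% lower, 18.5% higher). Between Eos- Tregs and Tconv 4 did not overlap, 3 lower and 1 higher, where 20.1% of all genes did not overlap (9.64% lower, 10.5% higher). The median log2 change of the 6 factors was -0.85, -1.06 and -0.47 in the 3 comparisons, in this order, against 0.0027, -0.0075 and -0.012 for all tested genes. In bulk RNA of sorted cells, fewer cells that express a gene and less of its RNA per cell cannot be told apart.

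**Figure D1:**
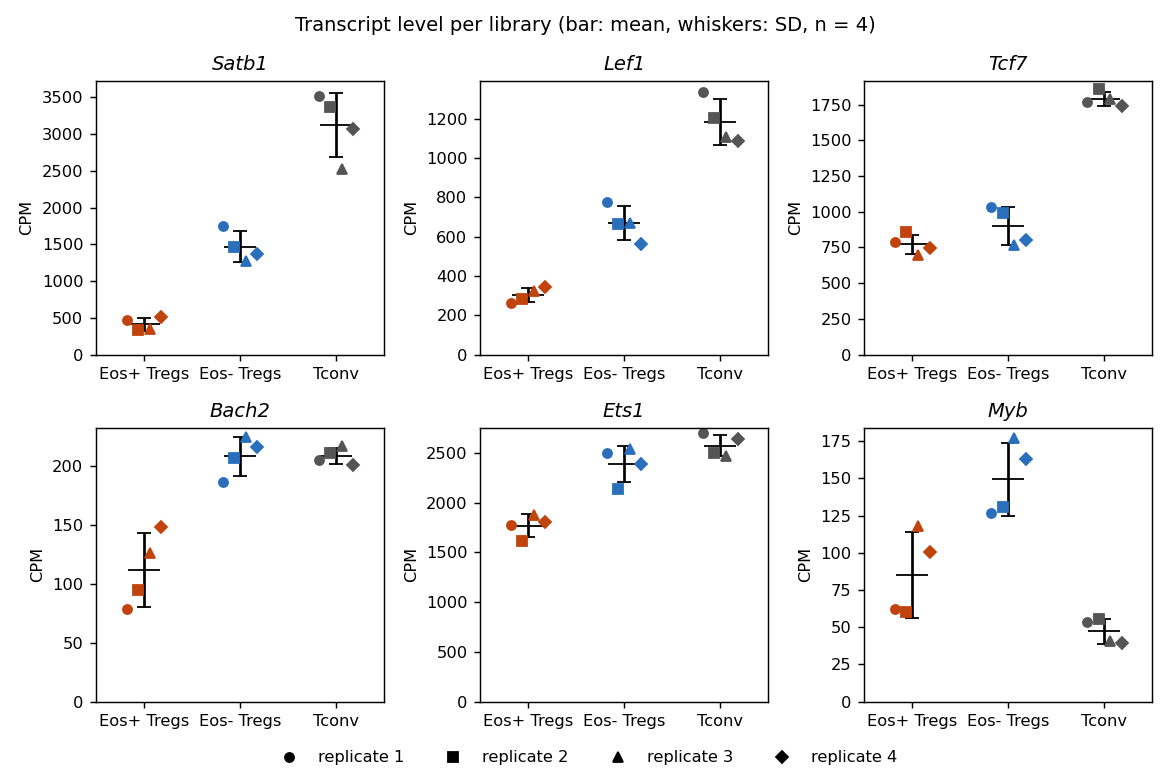
Transcript level of each factor in every library, in CPM on a linear axis that starts at 0, with 1 panel per gene. Symbols mark the replicate number, horizontal bars the group mean and whiskers the SD (n = 4). Satb1 and Lef1 step down from Tconv through Eos- to Eos+ Tregs, Tcf7 is low in both Treg groups, Bach2 and Ets1 are low in Eos+ Tregs, and Myb is highest in Eos- Tregs.

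Satb1 (ENSMUSG00000023927.15, chromosome 17, 51736187 to 51833290, minus strand, mm10) showed the widest range of the 6. Its level was 474, 331, 345 and 509 CPM in the 4 Eos+ Treg libraries in replicate order. Eos- Treg libraries stood at 1756, 1468, 1273 and 1372 CPM. Tconv libraries stood at 3523, 3366, 2526 and 3071 CPM. No library of one group reached the range of another, and the highest Eos+ library lay below the lowest Eos- library by more than the whole spread within Eos+ Tregs. The log2 change in Eos+ against Eos- Tregs was -1.82 ± 0.16 (SE), a 3.54-fold fall (edgeR quasi-likelihood test, Benjamini-Hochberg adjusted p = 1.88e-05), and 2.7- to 4.44-fold within libraries of the same number. Against Tconv, Eos+ Tregs were 7.53-fold lower (log2 change -2.91 ± 0.17, edgeR adjusted p = 1.16e-07) and Eos- Tregs 2.13-fold lower (-1.09 ± 0.16, edgeR adjusted p = 0.000606).

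Lef1 (ENSMUSG00000027985.14, chromosome 3, 131110471 to 131224356, plus strand), which carries beta-catenin to its target genes, followed the same order with smaller steps. Eos+ Treg libraries held 264, 283, 325 and 342 CPM. Eos- Treg libraries held 778, 665, 667 and 563 CPM. Tconv libraries held 1338, 1204, 1105 and 1086 CPM. The 3 groups did not overlap, and within Eos- Tregs and Tconv the library numbered 1 was the highest while within Eos+ Tregs it was the lowest. Lef1 was 2.20-fold lower in Eos+ than in Eos- Tregs (log2 change -1.14 ± 0.12 SE, edgeR adjusted p = 4.56e-05). It was 3.90-fold lower in Eos+ Tregs (log2 change -1.96 ± 0.12, edgeR adjusted p = 1.55e-07) and 1.77-fold lower in Eos- Tregs (-0.82 ± 0.12, edgeR adjusted p = 0.000413) than in Tconv. A predicted gene on the opposite strand, Gm43352, shares 1208 exon bases with Lef1, and the kit did not mark strand, so their reads cannot be told apart where they overlap. Gm43352 stood at 14.4 to 19.6 CPM in Eos+ Tregs, 45.7 to 62.1 in Eos- Tregs and 82.5 to 100.2 in Tconv. Satb1 shares 156 and 128 exon bases with 2 predicted genes that reached at most 9.16 and 14.9 CPM in any library. Bach2 shares 537 exon bases with Bach2os and Myb 559 with Gm26577, both on the opposite strand, which reached at most 1.76 and 0.568 CPM.

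A promoter window is shown for Satb1 and for Lef1, the members that fell furthest in Eos+ Tregs. Further down is that of Myb, the member with the opposite direction against Tconv. They are shown because the groups differ in these transcripts, although no binding or chromatin was measured. RefSeq lists 5 promoters for Satb1 and 4 for Lef1. Only the window shown is described for each, and which start these cells use was not measured. Windows run from 250 bases before to 50 after a RefSeq transcript start (GRCm38.p6), 5′ to 3′ on the gene's strand, and 5 of the 6 members (not Ets1) had an entry. Both strands were searched for 6 short motifs, TCF/LEF (CTTTGA), ETS (CCGGAAG), Ikaros (TGGGAA), forkhead (TGTTTAC), BACH/AP-1 (TGACTCA) and MYB (CAACNG), and capitals mark a match. Satb1 lies at chr17:51833241-51833540 on the minus strand and Lef1 at chr3:131110073-131110372 on the plus strand.
Satb1: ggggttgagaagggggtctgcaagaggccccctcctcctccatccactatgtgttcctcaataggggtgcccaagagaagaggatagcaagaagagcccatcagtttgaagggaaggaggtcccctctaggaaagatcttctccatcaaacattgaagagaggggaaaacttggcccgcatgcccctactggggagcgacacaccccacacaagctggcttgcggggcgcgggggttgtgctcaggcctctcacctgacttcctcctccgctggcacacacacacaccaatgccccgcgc
Lef1: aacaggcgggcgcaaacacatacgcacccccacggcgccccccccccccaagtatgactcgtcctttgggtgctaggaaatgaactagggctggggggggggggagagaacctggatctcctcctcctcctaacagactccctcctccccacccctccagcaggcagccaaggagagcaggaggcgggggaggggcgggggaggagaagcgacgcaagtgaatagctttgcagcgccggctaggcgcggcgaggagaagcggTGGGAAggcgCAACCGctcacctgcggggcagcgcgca
None of the 6 motifs stood in this Satb1 window, which held 8 CpG dinucleotides at 59.0% GC, and that says nothing of its other promoters. The Lef1 window held 21 CpG at 67.3% GC, with an Ikaros match 12 to 17 bases after the start and a MYB match 22 to 27 bases after it, which did not overlap. Ikaros letters stood in 25.6% and MYB letters in 35.0% of the 32851 mouse promoters in the RefSeq table, whose median GC was 52.7%. A match is a description of letters and not a site. The Bach2 window, chr4:32417185-32417484 on the plus strand, held a TCF/LEF match and an ETS match, motifs found in 16.0% and 8.86% of promoters. That window lies 178631 bases from the start of Bach2 in GENCODE M21.

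Tcf7 (ENSMUSG00000000782.15, chromosome 11, 52252371 to 52283014, minus strand), the HMG-box factor closest to Lef1, separated both Treg groups from Tconv more clearly than the Treg groups from each other. Eos+ Treg libraries held 788, 857, 695 and 744 CPM. Eos- Treg libraries held 1032, 990, 769 and 801 CPM. Tconv libraries held 1770, 1857, 1788 and 1744 CPM. The Treg groups overlapped, although the Eos+ library was the lower of each same-numbered pair, and every Tconv library was above every Treg library. Tcf7 was 2.32-fold lower in Eos+ Tregs (log2 change -1.21 ± 0.10 SE, edgeR adjusted p = 2.73e-06) and 1.99-fold lower in Eos- Tregs (-0.99 ± 0.10, edgeR adjusted p = 4.51e-05) than in Tconv. Between the Treg groups the log2 change was -0.22 with a 95% interval from -0.44 to 0.0044 (edgeR adjusted p = 0.181), which does not show that the groups were alike. That fit did not pair the libraries. The fit with the replicate number as a block gave -0.21 (adjusted p = 0.055), closer to the threshold but still above it.

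Tcf7 and Lef1 were set against each other per length of exon, since reads scale with transcript length. The length was that of all annotated exons merged, 2625 bases from 2 transcripts for Tcf7 and 8788 from 8 for Lef1. Which transcripts these cells use was not measured, so the size of the ratio and the ranks below depend partly on annotation. The same lengths were used for every library. On that scale Tcf7 averaged 294 CPM per kb for Eos+ Tregs, 342 for Eos- Tregs and 682 for Tconv, and Lef1 at 34.5, 76.1 and 135 CPM per kb. The ratio of Tcf7 to Lef1 was 7.16 to 10.2 in Eos+ Treg libraries, 3.86 to 4.98 in Eos- Treg libraries and 4.43 to 5.42 in Tconv libraries. Every Eos+ library had a higher ratio than any other library, and the other groups overlapped. By level per kb, Tcf7 ranked 35 of 15361 tested genes in Tconv, Ets1 100, Satb1 219, Lef1 290, Bach2 2860 and Myb 7091. In Eos+ Tregs the ranks were 106 for Tcf7, 178 for Ets1, 1783 for Lef1, 2862 for Satb1, 4806 for Bach2 and 5353 for Myb.

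Bach2 (ENSMUSG00000040270.16, chromosome 4, 32238804 to 32586108, plus strand) and Ets1 (ENSMUSG00000032035.15, chromosome 9, 32636221 to 32757820, plus strand) were lower in Eos+ Tregs than in both other groups, which were not told apart. For Bach2, Eos+ Treg libraries held 78.4, 94.9, 126 and 148 CPM. Eos- Treg libraries held 186, 206, 225 and 216 CPM, and Tconv libraries 205, 211, 217 and 201 CPM. The Eos+ libraries spread widely, with the lowest numbered 1 and the highest numbered 4, yet all lay below every library of the other groups. Bach2 was 1.86-fold lower in Eos+ than in Eos- Tregs (log2 change -0.90 ± 0.16 SE, edgeR adjusted p = 0.00182) and 1.86-fold lower than in Tconv (-0.90 ± 0.16, edgeR adjusted p = 0.000744). Eos- Tregs and Tconv differed by a log2 change between -0.33 and 0.33 (95% interval, edgeR adjusted p = 1.0), with 2 same-numbered pairs in each direction.

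Ets1 had the smallest called change of the 6. Eos+ Treg libraries held 1775, 1617, 1879 and 1809 CPM. Eos- Treg libraries held 2495, 2136, 2542 and 2384 CPM, and Tconv libraries 2694, 2495, 2470 and 2636 CPM. Every Eos+ library was below every other library, and the other groups overlapped. Ets1 was 1.35-fold lower in Eos+ than in Eos- Tregs (log2 change -0.43 ± 0.08 SE, edgeR adjusted p = 0.00302), with 1.32- to 1.41-fold in the 4 same-numbered pairs. It was 1.45-fold lower in Eos+ Tregs than in Tconv (log2 change -0.54 ± 0.08, edgeR adjusted p = 0.000254), and between Eos- Tregs and Tconv the 95% interval of the log2 change ran from -0.28 to 0.069 (edgeR adjusted p = 0.444). The fall against Eos- Tregs missed the threshold when the 6 libraries numbered 1 and 2 were left out (log2 change -0.43, edgeR adjusted p = 0.0823), a setting chosen after seeing the data.

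**Figure D2:**
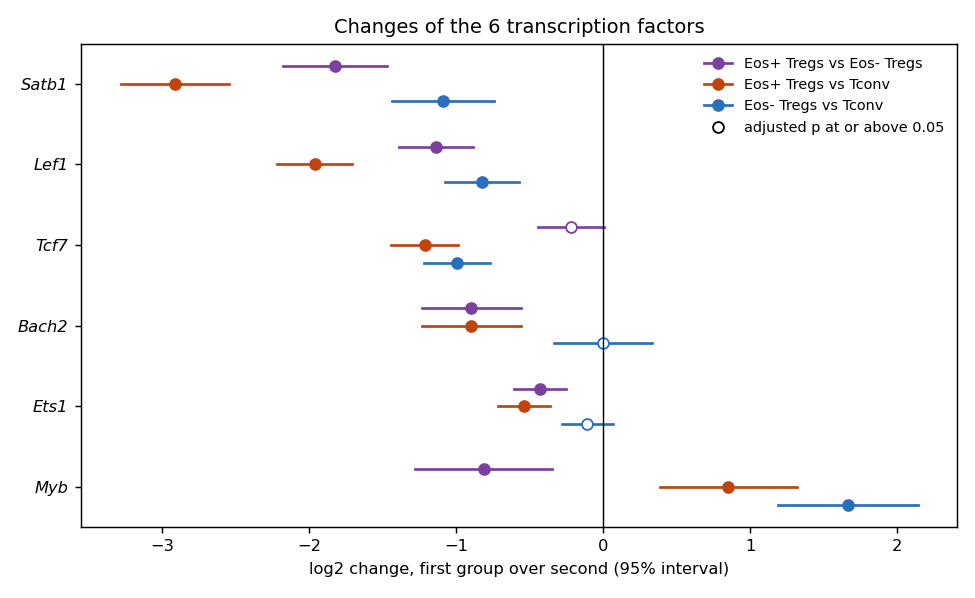
Log2 change of each factor in the 3 comparisons, with 95% intervals from the edgeR fit on all 12 libraries. Filled points passed the adjusted p threshold of 0.05 and open points did not. Satb1 in Eos+ Tregs against Tconv lies furthest from 0, at -2.91, and Myb alone has points on both sides of 0.

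Myb (ENSMUSG00000019982.15, chromosome 10, 21124935 to 21160984, minus strand) took a different order, with its highest level in Eos- Tregs and its lowest in Tconv. Eos+ Treg libraries held 62.1, 60.0, 118 and 100.5 CPM. Eos- Treg libraries held 127, 131, 177 and 163 CPM. Tconv libraries held 53.5, 55.3, 40.7 and 39.4 CPM. The groups did not overlap, but the gaps were narrow between the highest Eos+ and the lowest Eos- library and between the lowest Eos+ and the highest Tconv library. In both Treg groups the libraries numbered 3 and 4 were above those numbered 1 and 2, and in Tconv they were below them. Myb was 3.16-fold higher in Eos- Tregs than in Tconv (log2 change 1.66 ± 0.22 SE, edgeR adjusted p = 0.000279). It was 1.80-fold higher in Eos+ Tregs than in Tconv (log2 change 0.85 ± 0.22, edgeR adjusted p = 0.00931) and 1.75-fold lower in Eos+ than in Eos- Tregs (-0.81 ± 0.22, edgeR adjusted p = 0.0211).

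Among the 6 factors, Myb was the one whose calls depended on single libraries. Its fall in Eos+ against Eos- Tregs missed the threshold without Eos+ replicate 1 (log2 change -0.69, edgeR adjusted p = 0.0601), Eos+ replicate 2 (-0.67, adjusted p = 0.0616), Eos- replicate 3 (-0.73, adjusted p = 0.0668) or Eos- replicate 4 (-0.77, adjusted p = 0.0577). The rise against Tconv missed it in Eos+ Tregs without the 3 libraries numbered 3 (0.58, edgeR adjusted p = 0.0901) or those numbered 4 (0.70, adjusted p = 0.0862). The rise in Eos- Tregs against Tconv passed in every setting tried. The promoter of Myb, the only member above Tconv in both Treg groups, lies at chr10:21160935-21161234 on the minus strand of GRCm38.p6, with a forkhead match in capitals.
Myb: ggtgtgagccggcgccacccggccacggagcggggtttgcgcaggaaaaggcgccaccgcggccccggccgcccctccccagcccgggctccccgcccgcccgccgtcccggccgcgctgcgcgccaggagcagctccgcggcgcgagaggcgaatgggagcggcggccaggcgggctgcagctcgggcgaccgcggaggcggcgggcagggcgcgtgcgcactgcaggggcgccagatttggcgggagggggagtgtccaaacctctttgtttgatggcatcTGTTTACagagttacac
That window held 40 CpG at 75.0% GC, and the forkhead letters, 33 to 39 bases after the start, stood in 3.65% of all promoters searched.

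**Figure D3:**
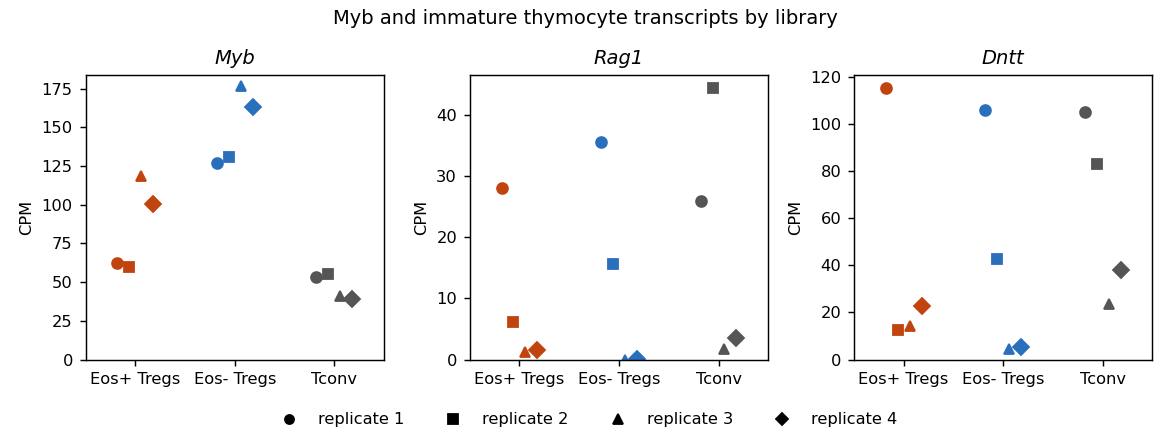
Myb, Rag1 and Dntt levels in every library, in CPM on linear axes that start at 0, with symbols for the replicate number. Rag1 and Dntt are genes of receptor rearrangement in immature thymocytes. Each is highest in a library numbered 1 or 2 in every group, but within Eos+ Tregs Dntt is lowest in library 2. Myb in the Treg groups is higher in the libraries numbered 3 and 4.

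Immature thymocytes express Myb, so their transcripts are given beside it. Rag1, which cuts receptor gene segments, was 28.0, 6.14, 1.17 and 1.5 CPM in Eos+ Tregs. It was 35.6, 15.6, 0 and 0.0574 CPM in Eos- Tregs and 26.0, 44.4, 1.71 and 3.50 CPM in Tconv. Its high libraries were those numbered 1 and 2 in each group, and the groups overlapped. The edgeR test called 0 of 11 markers of this stage in any of the 3 comparisons, also 0 at an unadjusted p under 0.05, with DESeq2 and with limma-voom. The replicate block called 1 marker lower in Eos+ Tregs than in Tconv. Without the libraries numbered 1 and 2, 2 were called higher in Eos+ than in Eos- Tregs, and 1 and 2 were called lower than in Tconv in Eos+ and Eos- Tregs. In that setting, chosen after seeing the data, the log2 change of Myb was -0.65 between the Treg groups (edgeR adjusted p = 0.0319), and 1.44 in Eos+ Tregs (edgeR adjusted p = 0.000746) and 2.09 in Eos- Tregs (edgeR adjusted p = 0.000502) against Tconv. The part of immature thymocytes in the Myb results was not tested.

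B cells also express Bach2 and Ets1, and their markers moved with the Eos+ gate. The summed level of 11 B cell markers was 1399 to 1836 CPM in Eos+ Tregs, 177 to 474 in Eos- Tregs and 230 to 407 in Tconv, most of it from Ighm at 1523 ± 138, 279 ± 118 and 250 ± 65.2 CPM (SD, n = 4). Of the 10 that could be tested, 4 were higher in Eos+ than in Eos- Tregs by edgeR (Ighm, Ighd, Cd79a and Cd79b, at 7 by DESeq2, and 10 at an unadjusted p under 0.05). Among all genes 9.82% were called higher there, and 4459 of 15361 had an unadjusted edgeR p under 0.05 in either direction. Against Tconv 3 of the 10 were higher in Eos+ Tregs, where 17.3% of all genes were called higher. Pax5, which sets B cell identity, was at most 0.639 CPM in any library and 0 in 5 of the 12. The call of Cd79a failed with limma-voom and in 9 more of 26 other fits, 5 of which left out a single library (number 1 or 2 of the Eos+ Tregs, or number 2, 3 or 4 of the Eos- Tregs). The part of B cell transcripts in the results of Bach2 and Ets1 was not tested. Of the 8 CD4 T cell markers, 4 were lower in Eos+ than in Eos- Tregs (Zbtb7b, Cd28, Cd5 and Trac, 1.22- to 1.51-fold), and 7 were lower in Eos+ Tregs than in Tconv. Of all genes, 6.45% and 13.0% were called lower in these comparisons. The call of Trac between the Treg groups (edgeR adjusted p = 0.0382) failed in 15 of 26 other fits, 7 of which left out a single library (number 1, 3 or 4 of the Eos+ Tregs, 2 or 4 of the Eos- Tregs, 1 or 3 of Tconv). The median log2 change of that list was -0.23, -0.62 and -0.40 in the 3 comparisons, and its part in the falls of the 6 factors was not tested. Other marker sums differed between libraries too. The sum of the epithelial and stromal markers ran from 136 to 191 CPM for Eos+ Tregs, 233 to 338 CPM for Eos- Tregs and 196 to 224 CPM for Tconv, and that of the dendritic cell and macrophage markers from 158 to 314, 64.9 to 219 and 91.8 to 172 CPM. The erythroid and granulocyte markers summed to 228 to 306 CPM for each group's library 1 and to at most 27.6 CPM elsewhere, and the part of these 3 lists in the results was not tested.

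The position of Eos- Tregs between Tconv and Eos+ Tregs differed from factor to factor. Of the log2 distance between Tconv and Eos+ Tregs, Eos- Tregs had covered 37.4% for Satb1 (35.1% to 40.5% when 1 library at a time was left out) and 42.0% for Lef1 (38.3% to 45.8%). For Tcf7 it was 81.9% (75.9% to 87.2%), for Ets1 19.9% (10.6% to 24.9%) and for Bach2 0.0454% (-6.10% to 3.84%). For Myb, Eos- Tregs lay beyond both other groups, so the share was 195% (168% to 255%). These shares describe the same libraries as the comparisons above and were not tested.

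Genes with the most similar profile over the 12 libraries differed from factor to factor as well. Likeness was the root mean square difference of log2 CPM after each gene's mean was removed, so that a smaller value is closer. For Satb1 the closest were St3gal6 (0.322), Kcnh3 (0.362) and Tmie (0.371), and the closest fellow member was Lef1 (0.452). For Lef1 they were Spsb1 (0.190), Xylt2 (0.217) and Ikzf1 (0.222), which encodes Ikaros and stood at 122 ± 17.1, 227 ± 14.4 and 363 ± 17.0 CPM in Eos+ Tregs, Eos- Tregs and Tconv (SD, n = 4). For Tcf7 they were Drosha (0.123), the nuclease that starts microRNA processing, Hmgn1 (0.152) and Lysmd3 (0.155). Bach2 was closest to Slfn5 (0.112), Dgkd (0.144) and Ptk2b (0.149). Ets1 was closest to Itgb2 (0.0848), a leukocyte integrin chain, Fyn (0.0927), a kinase of T cell receptor signalling, and Ncbp1 (0.0933). Among the closest to Myb were Dcaf17 (0.265) and Gata1 (0.290), at 19.1 ± 5.50, 34.3 ± 5.45 and 14.3 ± 0.977 CPM for Gata1, and the closest fellow member was Ets1 (0.801).

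Most other genes of naive and resting T cells were also lower in Eos+ than in Eos- Tregs. Of 24 tested genes of that list, 17 were lower and 1 was higher in Eos+ than in Eos- Tregs, with a median log2 change of -0.71. Of all tested genes, 6.45% were called lower and 9.82% higher. Igfbp4, which binds insulin-like growth factors, was 19.6 ± 7.13 against 100.2 ± 36.4 CPM, 5.11-fold lower (edgeR adjusted p = 0.000392). Tgfbr3, a TGF-beta coreceptor, was 13.0 ± 3.69 against 55.9 ± 9.88 CPM, 4.29-fold lower (edgeR adjusted p = 2.56e-05). Als2cl, Atp1b1 and S1pr1, the receptor that guides T cells out of the thymus, were 3.45-, 2.32- and 2.08-fold lower. Il7r, the interleukin-7 receptor, was the gene that rose, 2.67-fold (edgeR adjusted p = 0.0218), a call lost without Eos+ replicate 1 or Eos- replicate 2, 3 or 4. The 17 fell to 8 without the libraries numbered 2, to 10 without those numbered 3 and to 9 without those numbered 1 and 2.

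Against Tconv the list held genes of both directions. In Eos+ Tregs 10 of the 24 were lower and 2 were higher, with a median log2 change of -0.42. In Eos- Tregs 6 were lower and 7 were higher, with a median of 0.14. The shares of all genes were 13.0% lower and 17.3% higher for Eos+ Tregs, and 5.89% and 8.76% for Eos- Tregs. Igfbp4 was 25.1-fold lower in Eos+ Tregs (edgeR adjusted p = 1.06e-06) and 4.91-fold lower in Eos- Tregs (edgeR adjusted p = 0.000397), a graded order like that of Satb1. Klf3, a zinc finger repressor, was 199 ± 14.4, 357 ± 39.7 and 124 ± 28.4 CPM in Eos+ Tregs, Eos- Tregs and Tconv, the order of Myb. It was 2.87-fold higher in Eos- Tregs (edgeR adjusted p = 1.73e-05) and 1.60-fold higher in Eos+ Tregs (edgeR adjusted p = 0.00243) than in Tconv, the second call lost without the libraries numbered 1 and 2. S1pr1 was 2.24-fold higher in Eos- Tregs. Klf2, which drives S1pr1, and Ccr7, a homing receptor, were 2.10- and 1.60-fold higher in Eos- Tregs than in Tconv, calls lost without Eos- replicate 3 or 4 or Tconv replicate 1 or 2, and for Klf2 also without Tconv replicate 4. With 1 library left out at a time, 3 to 7 genes of the list were called higher and 4 to 7 lower in this comparison.

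**Figure D4:**
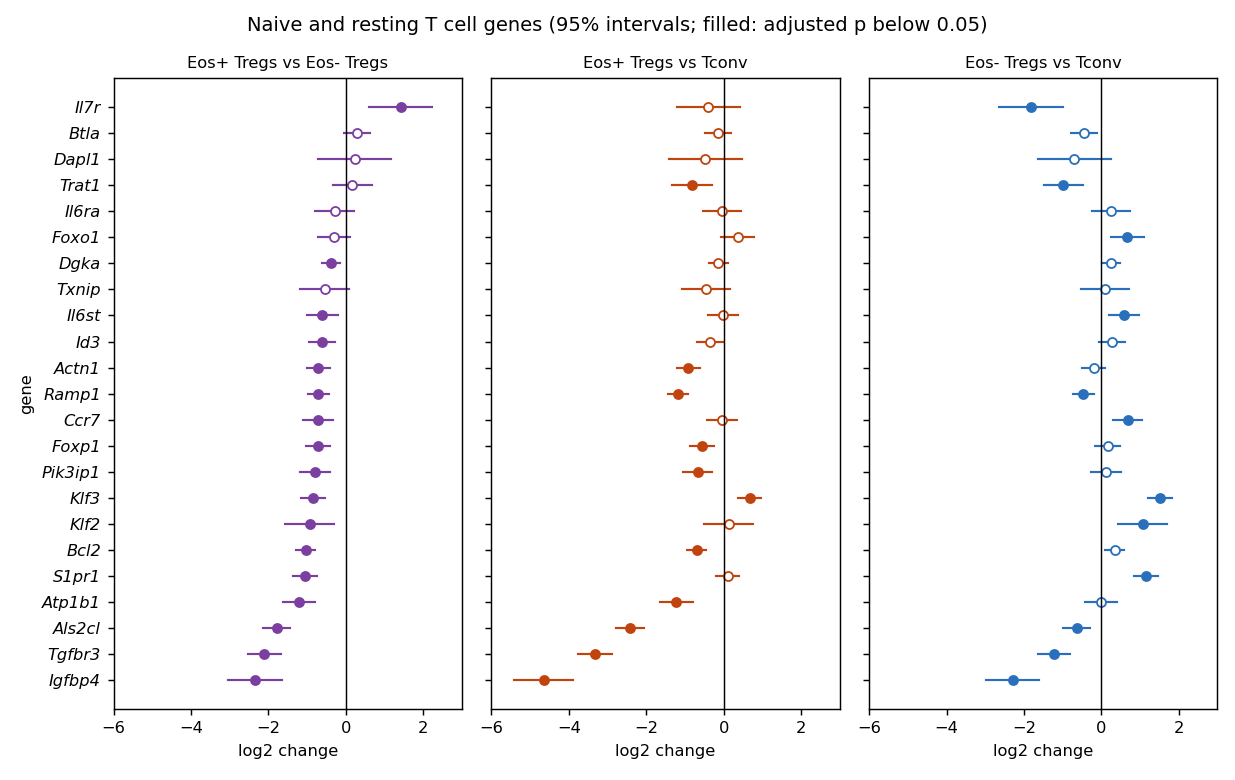
Log2 change of 23 of the 24 tested genes of naive and resting T cells in each comparison, with 95% intervals, filled where the edgeR adjusted p was below 0.05. Of the 23 drawn, 16 are called below 0 in Eos+ against Eos- Tregs, and in Eos- Tregs against Tconv 6 are called above and 6 below.

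Most relatives and partners of Lef1 and Tcf7 did not pass the test. In the list of 11 tested TCF/LEF genes, Groucho corepressors and Wnt partners, edgeR called 2 lower and 1 higher in Eos+ than in Eos- Tregs, with a median log2 change of -0.067. Among all genes 6.45% were called lower and 9.82% higher, and whether the list differed from all genes was not tested. Aes (Tle5), a short Groucho-related protein, was 323 ± 10.6 against 394 ± 8.89 CPM, 1.22-fold lower (edgeR adjusted p = 0.00619). Tcf7l2 was 4.28 ± 2.07 against 10.3 ± 2.75 CPM, 2.40-fold lower (edgeR adjusted p = 0.0447), a call lost in 16 of 26 other fits, and Tcf7l1, at 7.69 ± 3.11 against 6.10 ± 2.10 CPM, did not pass. Axin2, a Wnt target gene named here after its values were seen because it made up the higher count, was 1.68-fold higher (edgeR adjusted p = 0.0412), a call lost in 17 of 26 other fits, among them those without any 1 replicate number and those without any 1 of 9 single libraries. Against Tconv 2 genes were lower in Eos+ Tregs, Aes by 1.39-fold and the corepressor Tle4 by 1.39-fold. By edgeR 0 were higher, with 1 at an unadjusted p under 0.05, 1 by DESeq2 and 0 by limma-voom. Over all genes the shares were 13.0% lower and 17.3% higher. In Eos- Tregs 2 genes of the list were lower than in Tconv, Tle4 by 1.40-fold and Axin2 by 1.81-fold, where 5.89% of all genes were. By edgeR 0 were higher, with 1 at an unadjusted p under 0.05 and 1 by each of DESeq2 and limma-voom, where 8.76% of all genes were called higher. The call of Tle4 failed if library 2 or 4 of the Eos- Tregs or library 3 of Tconv was dropped, and that of Axin2 if library 3 or 4 of the Eos- Tregs or library 1, 3 or 4 of Tconv was. With 1 library left out 0 to 2 genes were called lower, and with 1 replicate number left out 0 to 1.

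Among 14 tested ETS genes other than Ets1, edgeR called 3 lower and 1 higher in Eos+ than in Eos- Tregs, with a median log2 change of -0.22. The shares over all genes were 6.45% lower and 9.82% higher. Ets2, the closest paralog of Ets1, was 67.4, 41.3, 60.7 and 71.7 CPM in Eos+ Tregs, 131, 122, 124 and 137 CPM in Eos- Tregs and 170, 136, 122 and 114 CPM in Tconv. Its Eos+ libraries lay below all others and the other groups overlapped, the same order as Ets1. Ets2 was 2.13-fold lower in Eos+ than in Eos- Tregs (edgeR adjusted p = 0.000626) and 2.25-fold lower than in Tconv (edgeR adjusted p = 0.000124). Elk4 was 1.79-fold lower than in Eos- Tregs and 2.00-fold lower than in Tconv, and Elf1 1.23- and 1.28-fold lower. Elk3 was 1.3- and 1.58-fold higher, and Etv6 was 1.44-fold higher than in Tconv. The calls of Elf1 and Elk3 between the Treg groups were lost in 14 and 16 of 26 other fits and that of Etv6 in 7. Fli1, an ETS factor of lymphoid and blood cells, was 92.8 ± 7.24, 91.8 ± 7.85 and 108 ± 9.60 CPM in Eos+ Tregs, Eos- Tregs and Tconv and passed in no comparison. In Eos- Tregs against Tconv edgeR, DESeq2 and limma-voom each called 0 of the 14, with 1 higher and 1 lower at an unadjusted edgeR p under 0.05.

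Bach2 pairs with small MAF proteins and competes with CNC factors for the same sites. Of 7 tested genes of the BACH, MAF and CNC families, Maf, which is not one of the small MAF genes, was higher in Eos+ Tregs. It stood at 29.9 ± 6.17 against 4.78 ± 1.97 CPM in Eos- Tregs and 4.79 ± 2.54 CPM in Tconv. That was 6.27-fold (edgeR adjusted p = 0.000526) and 6.21-fold (edgeR adjusted p = 0.00017). By edgeR 0 were lower between the Treg groups, against 4 at an unadjusted p under 0.05, 2 by DESeq2 and 1 by limma-voom. Over all genes 6.45% were called lower and 9.82% higher there, and 4459 of 15361 had an unadjusted edgeR p under 0.05 in either direction. Against Tconv the shares of all genes were 13.0% lower and 17.3% higher for Eos+ Tregs, and 5.89% and 8.76% for Eos- Tregs. Nfe2l2 (NRF2), the regulator of the oxidative stress response, was 2.17-fold lower in Eos+ and 1.63-fold lower in Eos- Tregs than in Tconv (edgeR adjusted p = 0.000102 and 0.00647), the second call lost without the libraries numbered 3. Bach1, the closest relative of Bach2, was 6.12 ± 2.96, 10.1 ± 2.07 and 11.0 ± 1.71 CPM and did not pass in any comparison. Of the relatives of Myb, Mybl2, a cell cycle factor, was 11.0 ± 5.94, 7.75 ± 5.40 and 10.6 ± 4.48 CPM, and Mybl1 was at most 0.373 CPM. For Mybl1 and Mybl2, edgeR, DESeq2 and limma-voom made 0 calls in any comparison, and 0 at an unadjusted edgeR p under 0.05.

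Transcription factors of effector T cells, a program that Bach2 is known to hold back, were also listed, Maf among them. Of 15 tested, 9 were higher in Eos+ than in Eos- Tregs, with a median log2 change of 1.02, and 0 were lower by edgeR, DESeq2, limma-voom or at an unadjusted p under 0.05. With 1 replicate number left out at a time, 6 to 11 were called higher. Among all genes 9.82% were called higher and 6.45% lower. Against Tconv these shares were 17.3% and 13.0% for Eos+ Tregs and 8.76% and 5.89% for Eos- Tregs. Prdm1 (Blimp-1), a known target of Bach2 repression, was 17.4, 11.6, 32.5 and 18.5 CPM in Eos+ Tregs, 5.69, 1.91, 2.90 and 5.69 CPM in Eos- Tregs and 7.29, 3.76, 2.08 and 1.81 CPM in Tconv. Its Eos+ libraries lay above all others, and it was 4.94-fold higher than in Eos- Tregs (edgeR adjusted p = 0.0069), a call lost without the libraries numbered 3 (edgeR adjusted p = 0.0711). Bhlhe40 was 386 ± 110 against 68.6 ± 34.9 CPM, 5.61-fold higher, Nfil3 6.06-fold higher and Rora 207 ± 18.1 against 50.8 ± 8.88 CPM, 4.07-fold higher (edgeR adjusted p = 9.81e-06). Against Tconv, 8 of the 15 were higher in Eos+ Tregs, with a median log2 change of 1.55, and 3 were lower, Tbx21 (T-bet), Id2 and Runx3, by 3.28-, 2.18- and 1.5-fold, of which 0 were called without the libraries numbered 4. The call of Runx3 (edgeR adjusted p = 0.043) was lost in 12 of 26 other fits, 5 of which left out a single library. Those of Tbx21 and Id2 were lost in 1 each. In Eos- Tregs 4 were higher (Bhlhe40, Gata3, Hif1a and Rora) and the same 3 were lower than in Tconv, with a median log2 change of 0.12. With 1 library left out at a time 2 to 4 were called higher and 3 lower, and with 1 replicate number left out 1 to 4 and 2 to 3. The call of Rora was lost in 10 of 26 other fits and that of Bhlhe40 in 4. Cytotoxic and NK cells also express Tbx21, Id2 and Runx3. Summed, 8 markers of such cells stood at 127 to 190 CPM in Eos+ Tregs, 53.5 to 123 in Eos- Tregs and 119 to 428 in Tconv. The part of these cells in the falls of Tbx21, Id2 and Runx3 was not tested.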

How the data were processed

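The deposited table held expected counts per gene for 12 libraries, not scaled for depth or length. RSEM 1.3.1, STAR 2.7.0f and cutadapt 1.18 are named with the mm10 genome in the submitters' processing notes, and per the labels' protocols cDNA came from a template-switching kit for low input, which does not mark strand, followed by tagmentation. Their settings are not given in the sources used here. Positions and merged exon lengths came from GENCODE M21, which held all 55450 gene IDs. Libraries held 23.9 to 37.9 M counts, and intervals cover the spread between libraries, not counting error alone.

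After rounding, edgeR 4.0.16 in R 4.3.3 tested the counts (TMM, filterByExpr, quasi-likelihood F test, 1 mean per group over all 12 libraries, two-sided, Benjamini-Hochberg adjustment over 15361 genes, threshold 0.05). A gene is called when it passes this threshold. The SE was the log2 change divided by the root of F. Fits on counts drawn with known changes were used to test the script. Other fits used DESeq2 1.42.0, limma-voom (limma 3.58.1), RLE factors, library totals, no filter, the compared groups alone, unrounded counts, the replicate number as a block, each library or each replicate number left out, and an exact permutation test of log2(CPM + 1) over 70 arrangements, whose smallest p is 0.0286. Leaving out the libraries numbered 1 and 2 was added after seeing the data.

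The labels give the groups the same replicate numbers and a shared tag in the library names. Same-numbered libraries deviated together from their group means (correlation 0.138 to 0.318 over 12 pairs, against -0.226 to 0.0695 over 36 pairs with different numbers), so the numbers were taken to pair the samples. The main fit did not use this pairing, so its SEs, intervals and p-values ignore it, while the replicate block does use it. All 18 pairs of libraries within a group differed beyond the sampling noise of their counts.

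The members and lists were chosen with earlier results of these data known. Named in each other list were at most 5 called genes per direction with a mean of 10 CPM in some group, in order of change, beside family relatives of the members. The similar genes were the 3 closest with a mean of at least 10 CPM, predicted genes and receptor segments left out. Values of a few single genes are not reported here, although the counts of their lists include them. Expected counts of Satb1, Lef1, Bach2 and Myb were not whole in 11, 12, 12 and 5 libraries, because reads that fit more than 1 gene are divided by RSEM, and those of Tcf7 and Ets1 were whole in all.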

Additional observations from a re-analysis of the deposited data

Results flagged for a closer look

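Among 237 groups of 4 libraries over 79 genes, 13 held a library that stood apart by Dixon's criterion, where chance gives about 1 in 20, and none of the 6 factors was among them. Of the genes of naive T cells, Il7r was 477.6 CPM in Eos+ replicate 1 (others 238.2 to 278.7) and Trat1 84.49 CPM in Tconv replicate 3 (others 125.6 to 131.8). Of the effector factors, Id2 was 140.6 CPM (others 70.65 to 78.29) and Hif1a 243.9 CPM (others 276.3 to 278.6) in Eos- replicate 1. Of the relatives, Mybl1 was 0.3227 CPM in Eos+ replicate 4 (others 0.05741 to 0.08746). Of the genes with similar profiles, Ikzf1 was 96.25 CPM in Eos+ replicate 2 (others 127.8 to 133.7), Ptk2b 373.8 CPM in Eos- replicate 1 (others 460.3 to 475.5) and Gata1 42.39 CPM in Eos- replicate 4 (others 30.51 to 32.32). Of the markers, Cd28 was 440.5 CPM in Eos- replicate 2 (others 404.3 to 410.5), Ighd 4.609 CPM in Tconv replicate 1 (others 1.526 to 1.709) and Klrb1c 4.797 CPM in Eos+ replicate 1 (others 0.6602 to 1.195). Klrd1 was 6.189 CPM in Eos- replicate 1 (others 0.03456 to 0.9116) and 36.38 CPM in Tconv replicate 4 (others 8.623 to 13.31).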

How the results depend on the processing

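Of the 18 results on the 6 factors (6 genes in 3 comparisons), 15 kept their side of the threshold in all 27 other settings, and no called change turned its direction. The 27 are not equal checks. The permutation p was unadjusted and is 0.0286 wherever the compared groups do not overlap, so there it only repeats the lack of overlap. Fits without a library of the group not compared left the compared libraries whole. Bach2 between Eos- Tregs and Tconv, near 0 and never called, ran from -0.035 to 0.081 and changed sign in 11 settings. The results that crossed the threshold were Ets1 between the Treg groups without the 6 libraries numbered 1 and 2 (-0.43, edgeR adjusted p = 0.0823), and Myb in 2 comparisons. Leaving out 1 library or 1 replicate number gave Myb log2 changes of -1.01 to -0.67 between the Treg groups, called in 9 of 16 such fits. In Eos+ Tregs against Tconv they gave 0.58 to 1.07, called in 14 of 16. In each comparison the 16 include fits without 1 library of the group not compared. Those fits left the compared libraries whole and all kept the call, so every loss came from a fit that removed a compared library. Without the 6 libraries numbered 1 and 2 the Myb changes were -0.65 and 1.44, both called, also with the replicate block (-0.65 and 1.44). The number of called genes moved more. It was 2500 between the Treg groups, 1208 to 2936 with libraries left out, 972 without the 6 libraries numbered 1 and 2 and 1523 there with the replicate block. It was 4655 for Eos+ Tregs against Tconv, 3031 to 4947 with libraries left out, and 2352 and 3058 in the same reduced sets. It was 2249 for Eos- Tregs against Tconv, 1081 to 2884 with libraries left out, and 1401 and 1991 in the reduced sets. On all libraries the replicate block gave 3498, 5571 and 3300 calls and changed no call of a factor. The cause of these shifts was not tested, beyond fewer libraries entering the reduced fits. With 4 libraries a group and unknown animals, small changes such as that of Tcf7 between the Treg groups were not resolved.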
